A study of Homo sapiens with 50 samples.

Results

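The genes described here load amino acids onto transfer RNAs in the cytosol, make amino acids or carry them into the cell. The members were taken from a list of 39 gene names that holds the cytosolic tRNA synthetases and genes of amino acid synthesis and transport. A member is a gene of the list that has at least 1 probe on the array, and all 39 do, among 34127 probes that are not controls. Where a gene had several probes, the brightest was used, and no measured difference was used in the choice of probe. The list itself was drawn up with earlier results of these data known. The list was split by role into 12 synthetases that are commonly listed as targets of the transcription factor ATF4, 8 other cytosolic synthetases, 6 enzymes of serine and one-carbon metabolism, 5 enzymes of proline, cysteine and alanine metabolism, and 8 transporters.

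An aminoacyl-tRNA synthetase joins one amino acid to its tRNA and so supplies the ribosome. When amino acids run short, uncharged tRNA activates a kinase of the integrated stress response, translation slows, and the mRNA of ATF4 is translated more. ATF4 then binds short elements in the promoters of many synthetase, amino acid synthesis and transporter genes, so these genes often move together. Lung tumour lines differ in how much serine they make, and PHGDH, which starts the serine pathway, is well known for this.

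The data came from H1299, a carcinoma line of the human lung (non-small cell), and from H1299shRAD9, the same line stably transduced with a pSUPER.retro.puro retroviral vector that expresses a short hairpin RNA against RAD9, a DNA damage checkpoint gene. Each line was sampled as 5 groups of 5 biological replicates, 50 arrays in all, at 4 h after exposure to 0 or 1 Gy of alpha particles (4He ions). CTL was the sham-irradiated control, DBP and DBN were directly irradiated cells, and BP and BN were their unirradiated bystander neighbours from the same dishes. The letters P and N mark dishes whose bystanders had a high or a background level of micronuclei, so these groups were selected on a measured response. Per the study's methods, dishes between its limits were not chosen. The labels name no empty or scrambled vector for H1299. The study's methods put puromycin in the medium to select the stable transduced clones and name none for H1299, and its part was not tested. Per the study's methods, a pair of stable transfectants was used interchangeably, and which of them gave a sample was not given in the sources used here. A bulk sample cannot tell apart fewer expressing cells and less RNA per cell.

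Across arrays, 55.1% to 83.2% of the probes that are not controls were well above background, and the median intensity ran from 96.6 to 517. Both the lowest median (H1299 BP replicate 1) and the highest detected share (H1299 DBN replicate 1) were in the parental line. The arrays lay on 13 slides and were scanned on 6 days. The lines shared no slide in CTL, DBP, DBN or BN, so that slide and line cannot be told apart there. In CTL, DBP and BN they also shared no scan day. In BP they shared only the slide that held H1299shRAD9 replicate 1 and H1299 replicate 5. Levels below are log2 intensities minus the median of the array, listed in the order of replicates 1 to 5, and levels of different probes are not compared. For RAD9A, the targeted gene, the levels in H1299shRAD9 were 3.32, 3.15, 3.24, 2.85 and 3.16 in CTL, 3.21, 3.47, 3.02, 3.33 and 3.30 in DBP, 3.33, 3.27, 2.92, 3.07 and 3.25 in BP, 3.75, 3.23, 3.06, 3.23 and 3.14 in DBN, and 3.44, 3.42, 2.86, 2.96 and 3.18 in BN. In H1299 they were 3.44, 3.48, 3.60, 3.25 and 3.46 in CTL, 4.09, 3.64, 3.16, 3.51 and 3.49 in DBP, 3.35, 3.48, 2.95, 3.37 and 3.17 in BP, 2.60, 3.86, 2.87, 3.30 and 3.49 in DBN, and 3.14, 3.53, 2.90, 3.39 and 3.28 in BN. RAD9A was 0.30 lower on the log2 scale in H1299shRAD9 CTL (81.1% of H1299, exact two-sided permutation p = 0.0159), and the groups overlapped only through replicate 4 of H1299 and replicate 1 of H1299shRAD9. The DBP groups differed by -0.31 (exact p = 0.0873), the BN groups by -0.08 (exact p = 0.611) and the BP groups by -0.10 (exact p = 0.444). In DBN it was 0.06 (exact p = 0.802), so there the arrays labelled H1299shRAD9 did not have the lower level, which bears on each direction given for DBN below, and with the arrays scaled to their 75th percentile this value was -0.11. With normexp background correction the BN value was 0.40. These are mRNA values, while the study chose its transfected clones by a reduction of RAD9 protein on Western blots. The arrays give no protein levels. The epithelial keratins KRT8 and KRT18 and the mesenchymal marker VIM were well above background on 50 of 50 arrays. Among markers of other cells, the endothelial PECAM1 was so on 2 arrays and the liver gene ALB on 3. The endothelial CDH5, the leukocyte gene PTPRC and the monocyte gene CD14 were so on 50 of 50 (median levels 0.78, 0.14 and -0.83) and the T-cell gene CD3E on 38 (-1.997). PTPRC was higher in H1299shRAD9 in CTL (1.26, adjusted p = 0.0128) and BP (1.19, adjusted p = 0.0475), and CD14 was lower than CTL in H1299shRAD9 DBP (-0.60, adjusted p = 0.0626) and DBN (-0.58, adjusted p = 0.0820). Their part in the results was not tested.

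Of the 39 members, 37 passed the filter on dim features (well above background on more than 75% of all 50 arrays). SLC7A3, a cationic amino acid transporter, was well above background on 0 of 50 arrays. ALDH1L2, a mitochondrial folate enzyme, was well above background on 25 of 25 H1299 arrays and on 7 of 25 H1299shRAD9 arrays. Its levels had a lowest, median and highest value of -2.54, -2.14 and -0.22 in H1299 and of -2.99, -2.30 and -1.88 in H1299shRAD9, so that the ranges overlapped. Neither gene was tested.

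The probes behind the results below show where on a transcript each gene was read, and they are given 5′ to 3′ with hg19 coordinates on the minus strand. Lower case is used throughout because no part is singled out.
LARS, chr5:145557111-145557170: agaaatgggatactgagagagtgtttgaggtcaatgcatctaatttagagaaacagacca
IARS, the probe nearest the 5′ end, chr9:95043107-95043166: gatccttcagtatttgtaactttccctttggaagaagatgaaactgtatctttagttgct
FARSA, chr19:13033650-13034973: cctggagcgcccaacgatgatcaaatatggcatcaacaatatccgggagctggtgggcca
The FARSA interval spans 1324 bases for a probe of 60, so the probe crosses at least 1 intron and matches spliced RNA. The LARS probe starts at base 302 of its transcript. That is the start nearest the 5′ end among the probes used for the 39 members, with the next at base 1134 and the farthest at base 6741.

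Because ATF4 targets are listed among the members, the promoters were read for a short form of the element that ATF4 and C/EBP proteins share, TGATGNAA, on either strand. Sequences came from RefSeq (GRCh38.p14, 250 bases before to 50 after each start), where 29 of 39 members were matched, LARS not among them. The motif was in 9 of these 29 (31.0%) and in 1003 of 27305 promoters of the whole table (3.67%). It was in 6 of 10 synthetases listed as ATF4 targets and 3 of 7 transporters, and in 0 of 6 other cytosolic synthetases, 0 of 3 serine and 0 of 3 proline, cysteine and alanine enzymes. In AARS and IARS the whole motif lay before the start, and in the other members that held it, it overlapped or followed the start. The stretches below show it in these 2 synthetases and in ASNS and CHAC1, stress response genes that rose in H1299shRAD9. The motif is in capitals and each stretch is read on the strand of its gene. TTGCATCA is the same motif on the other strand.
AARS1 (AARS on the array), chr16:70289670-70289709, minus strand: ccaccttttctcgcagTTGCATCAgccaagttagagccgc
IARS1 (IARS on the array), chr9:92293698-92293726, minus strand: ccgcattttcagcgcgTTGCATCAcctcc
ASNS, chr7:97872453-97872492, minus strand: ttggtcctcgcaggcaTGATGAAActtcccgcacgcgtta
CHAC1, chr15:40953246-40953285, plus strand: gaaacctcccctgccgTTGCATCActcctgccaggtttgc
The motif lay 13 bases before the start in IARS1, 68 in ASNS, 187 in AARS1 and 209 in CHAC1. Of the 14 stress response genes matched, 3 held the motif, and TRIB3, which also rose, did not. Beside ASNS and CHAC1 it was in ATF3, 191 bases before the start, and ATF3 was not called after exposure in H1299shRAD9. A match is a match of letters, and the arrays do not measure binding.

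The first question was what irradiation and bystander exposure did to these genes in H1299shRAD9. LARS, which charges leucine tRNA, rose in 2 of the 4 exposed groups. The 4 comparisons share the same CTL arrays, so their values stand side by side and are not independent. LARS levels in H1299shRAD9 were 4.23, 3.51, 4.11, 3.95 and 4.37 in CTL, 4.81, 4.35, 4.78, 4.87 and 5.29 in BP and 4.93, 4.43, 5.13, 5.19 and 4.39 in DBN. Every BP array was above the CTL array of the same replicate number, although the lowest BP level (4.35) was just under the highest CTL level (4.37). Every DBN array was above every CTL array, with 4.39 as the lowest. In DBN only replicate 1 shared the slide and scan day of its CTL array. DBN replicates 2, 3, 4 and 5 were on another slide and scan day than their CTL arrays. The same held for replicates 2, 3 and 4 in BN and for replicate 1 in BP. The part of scan day in these comparisons was not tested. LARS was 0.79 log2 higher in BP (SE 0.0954, 1.73-fold, adjusted p = 0.0355, higher in 5 of 5 pairs) and 0.78 higher in DBN (SE 0.167, 1.72-fold, adjusted p = 0.0846, higher in 5 of 5 pairs). A gene was called when its p was below 0.006 and its Benjamini-Hochberg adjusted p in limma, over all 20079 features, below 10%.

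LARS was the only member called in either comparison, 1 of 37 (2.70%). Of all features, 1.37% were called in BP and 2.78% in DBN, so the members' share was near the background. In the remaining exposed groups LARS levels were 4.26, 4.53, 5.08, 4.66 and 4.995 in DBP and 4.22, 4.66, 4.81, 5.22 and 4.74 in BN. In DBP all 5 arrays were above their own control and in BN 4 of 5 were, and both ranges overlapped that of CTL. The differences were 0.67 (SE 0.144, adjusted p = 0.102) and 0.70 (SE 0.189, adjusted p = 0.229), and neither passed the test. No member was called in DBP or BN, where 1.53% and 0.0299% of all features were, while 11 and 6 members had an unadjusted p under 0.05 in limma (14.6% and 13.4% of all features). By that measure there were 7 members in BP and 3 in DBN, against 10.5% and 14.5% of all features. Each LARS call was lost on leaving out any 1 of several replicates, though the differences stayed positive. The BP call was lost without replicate 2, 4 or 5 (0.76 to 0.78, adjusted p = 0.116 to 0.123), and the DBN call without replicate 1, 2, 3 or 4 (0.67 to 0.80, adjusted p = 0.178 to 0.240).

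**Figure D1:**
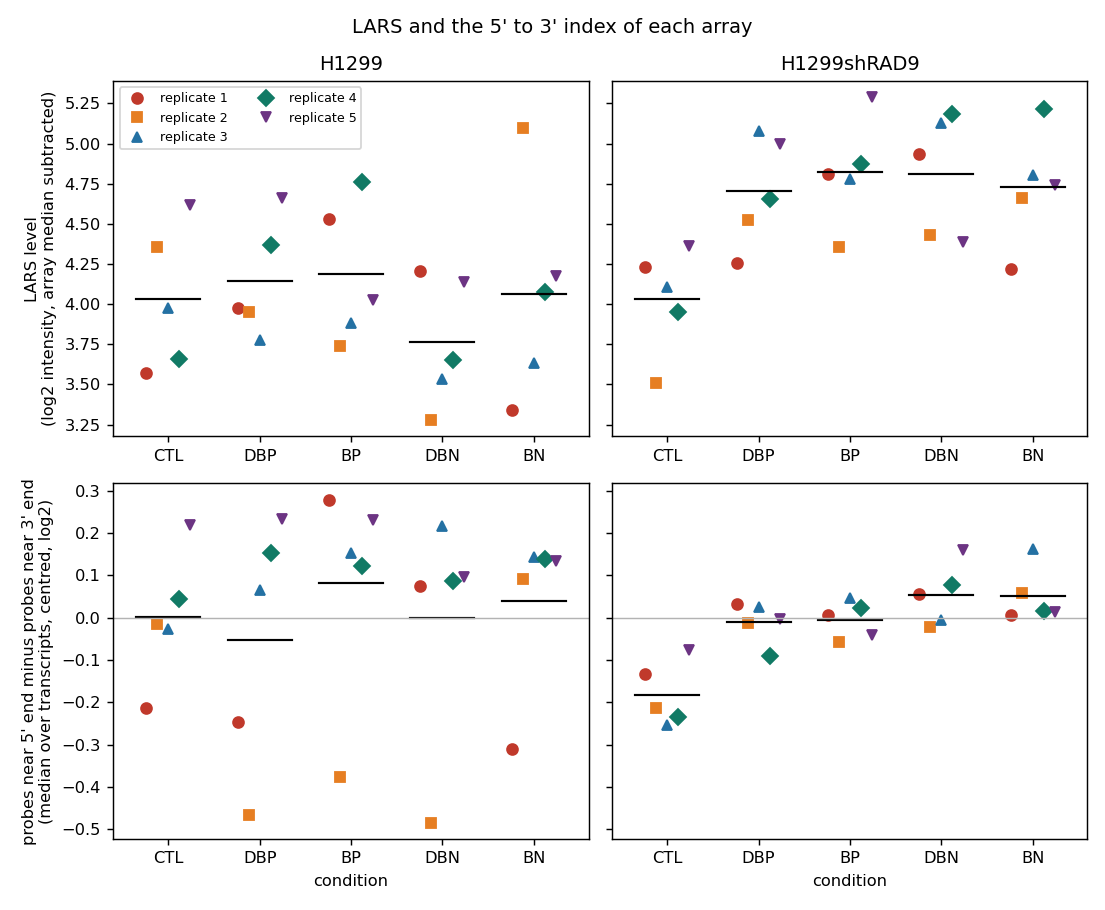
LARS level on each array (top, log2 intensity minus the array median) and the 5′ to 3′ index of the same arrays (bottom, log2, defined in the next paragraph), by condition and line; shapes mark the replicate number and bars are group means. In H1299shRAD9 the CTL arrays run from 3.51 to 4.37 for LARS and from -0.253 to -0.0756 for the index, and both group means are the lowest of the line.

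The LARS probe lies near the 5′ end of its transcript, and in the same comparisons probes near the 5′ end differed from those near the 3′ end across many transcripts. An index per array was taken as the median, over 1374 transcripts with tested probes at least 1000 bases apart, of the 5′ probe minus the 3′ probe, centred on each pair's mean. In H1299shRAD9 it averaged -0.182 in CTL (-0.253 to -0.0756), against -0.00981, -0.00463, 0.0528 and 0.0517 in DBP, BP, DBN and BN. Against CTL, the 5′ probes of these transcripts had a median difference of 0.126, 0.128, 0.122 and 0.132 in DBP, BP, DBN and BN, and the 3′ probes of -0.0222, -0.0265, -0.0619 and -0.0525. With the index as a covariate, chosen after seeing the data, the LARS difference was 0.85 in BP (adjusted p = 0.454) and -0.014 in DBN (adjusted p = 1.00). The CTL indices lay below all those of BP, DBN and BN and overlapped those of DBP, so the index and the control group can hardly be told apart in this fit, and its part was not tested further.

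IARS, the isoleucine synthetase, has 3 probes on 1 transcript, and the one nearest the 5′ end had the larger differences. Its brightest probe, at base 4204, differed from CTL by 0.28, 0.15, 0.14 and 0.14 in DBP, BP, DBN and BN, and was not called. The probe at base 3606 gave 0.37, 0.13, 0.08 and 0.21, also not called. The probe at base 863, printed above, was 0.63 higher in DBP (adjusted p = 0.0722), 0.62 in BP (adjusted p = 0.0545) and 0.93 in DBN (adjusted p = 0.0499), all called, and gave 0.71 in BN (adjusted p = 0.210). For PYCR1, which makes proline, the probe at base 507 differed by 0.32, 0.35, 0.52 and 0.45 in DBP, BP, DBN and BN and the probe at base 1937 by 0.17, 0.14, 0.15 and 0.09, none of them called. For SLC38A2, a glutamine carrier induced by amino acid lack, the probe at base 2170 had differences of 0.41, 0.40, 0.55 and 0.52, of which the DBN value was called (adjusted p = 0.0774), and the brightest, at base 4085, of 0.19, 0.05, -0.08 and 0.21, none called. Other probe pairs differed less. For MARS the probe at base 695 had differences of -0.04, -0.009, 0.01 and -0.09 in DBP, BP, DBN and BN and the brightest, at base 2849, of 0.005, 0.009, -0.12 and -0.10. For SARS the probe at base 1273 gave 0.15, 0.20, 0.06 and 0.04 and the brightest, at base 1843, 0.11, 0.11, 0.03 and 0.01. For SLC38A1 the brightest, at base 3258, gave 0.06, 0.04, -0.08 and 0.003 and the probe at base 8204 gave 0.04, 0.03, -0.07 and -0.07, while the probe at base 137 was too dim to be tested.

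By role, the ATF4-listed synthetases lay above their controls in nearly every exposed group of H1299shRAD9, by small amounts. All 12 had a positive difference in DBP and in BP and 11 of 12 in DBN and BN, with medians of 0.21, 0.14, 0.13 and 0.14. CARS, the cysteine synthetase, had differences of 0.46 in DBP (adjusted p = 0.151), 0.42 in BP (adjusted p = 0.108), 0.41 in DBN (adjusted p = 0.260) and 0.48 in BN (adjusted p = 0.189). It was above its control in 5 of 5 pairs each time and never called. GARS, the glycine synthetase, stood at 0.34, 0.20, 0.25 and 0.22 and YARS, the tyrosine synthetase, at 0.23, 0.18, 0.16 and 0.27, not called. The lone negative values of the role came from MARS, the methionine synthetase, at -0.12 in DBN and -0.10 in BN.

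The other roles gave no call in H1299shRAD9 after exposure. Among the 8 other cytosolic synthetases, 6, 6, 5 and 5 were above 0 in DBP, BP, DBN and BN, and the medians were 0.06, 0.08, 0.04 and 0.04. The enzyme CTH, which makes cysteine from cystathionine, had differences of 0.50 (adjusted p = 0.175), 0.39 (adjusted p = 0.191), 0.44 (adjusted p = 0.153) and 0.34 (adjusted p = 0.240), above control in 5 of 5 pairs each time. The 5 proline, cysteine and alanine enzymes had medians of 0.17, 0.14, 0.15 and 0.09. The 5 tested serine and one-carbon enzymes had medians of 0.22, 0.14, 0.13 and 0.10, with PSAT1, the serine pathway transaminase, at 0.32, 0.28, 0.18 and 0.16. The 7 tested transporters had medians of 0.19, 0.18, 0.09 and 0.13, with SLC1A4, a neutral amino acid carrier, at 0.44, 0.33, 0.28 and 0.32. Over all 37 tested members the median was 0.18 in DBP (35 above 0), 0.13 in BP (32 above 0), 0.07 in DBN (29 above 0) and 0.10 in BN (30 above 0). Over all features it was 0.01, 0.01, -0.02 and -0.01.

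**Figure D2:**
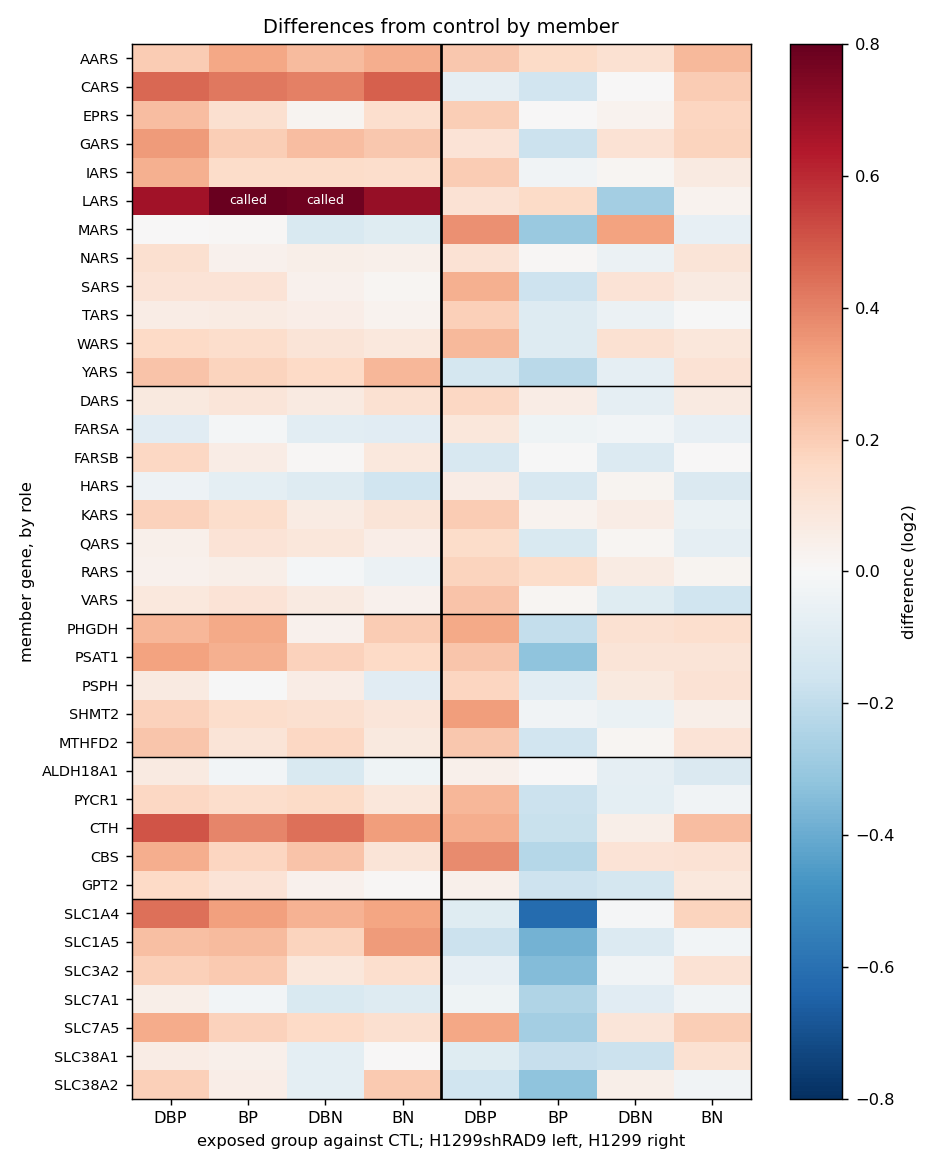
Difference from the sham-irradiated control (log2, colour) of each of the 37 tested members, in rows grouped by role, for the 4 exposed groups of H1299shRAD9 (left) and H1299 (right). In H1299shRAD9 most cells are above 0 and LARS alone is marked as called, in BP and DBN, while in H1299 no member is called and most are below 0 in BP.

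The same question in H1299 gave no called member in any of the 4 comparisons by limma, where 0.0349%, 0%, 0.00996% and 0% of all features were called (DBP, BP, DBN, BN). At an unadjusted p under 0.05 there were 4 members in DBP and 0 in BP, DBN and BN, against 5.85%, 5.56%, 2.96% and 3.23% of all features. LARS levels in H1299 were 3.57, 4.35, 3.98, 3.66 and 4.62 in CTL, 3.98, 3.95, 3.77, 4.37 and 4.66 in DBP and 4.53, 3.74, 3.88, 4.76 and 4.03 in BP. They were 4.21, 3.28, 3.53, 3.65 and 4.14 in DBN and 3.34, 5.10, 3.64, 4.07 and 4.17 in BN. All 4 exposed ranges overlapped that of CTL, and the differences were 0.11, 0.15, -0.27 and 0.03. The members' medians in H1299 were 0.17 in DBP (28 of 37 above 0), -0.15 in BP (9 of 37), 0.01 in DBN (20 of 37) and 0.07 in BN (25 of 37), against 0.03, -0.04, -0.06 and -0.03 over all features. In BP 0 of 7 transporters and 0 of 5 serine enzymes were above 0. These medians turned on single replicates, since without replicate 1 the BP median was 0.10 and the DBN median 0.24, and without replicate 2 they were -0.24 and -0.13.

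Whether the exposed-to-control difference itself differed between the lines was tested as an interaction. No member was called in the 4 interactions by limma, nor was any feature (0%), and 3, 3, 1 and 2 members had an unadjusted p under 0.05 in DBP, BP, DBN and BN, against 7.9%, 6.35%, 6.97% and 6.19% of all features. For LARS in DBN the interaction was 1.05 (adjusted p = 0.361). A difference between the lines in their response was therefore not shown for any member.

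The second question was how the lines differed within each condition. Few members were called, all of them synthetases and all higher in H1299shRAD9. In every condition the called share of the members was below that of all features. The called genes were LARS, listed as an ATF4 target, and FARSA, HARS and VARS, which are not. FARSA is the alpha subunit of the phenylalanine synthetase, HARS charges histidine tRNA and VARS charges valine tRNA. FARSA levels in CTL were 6.27, 6.33, 6.66, 6.46 and 6.52 in H1299shRAD9 and 6.08, 5.76, 5.86, 5.94 and 6.22 in H1299. HARS levels in CTL were 7.04, 7.08, 7.42, 7.25 and 7.07 in H1299shRAD9 and 6.81, 6.43, 6.84, 6.75 and 6.71 in H1299. For both genes every H1299shRAD9 array was above every H1299 array. FARSA was 0.47 higher (SE 0.12, adjusted p = 0.0227) and HARS 0.46 higher (SE 0.118, adjusted p = 0.0228), which made 2 of 37 members called (5.41%), where 14.2% of all features were. Here a call needed p below 0.005 with the same adjusted limit. The calls were lost without replicate 2, 3 or 4 for FARSA (0.39 to 0.46, adjusted p = 0.0460 to 0.108) and without replicate 2, 3, 4 or 5 for HARS (0.41 to 0.49, adjusted p = 0.0455 to 0.0989).

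In BP the FARSA levels were 6.30, 6.37, 6.47, 6.47 and 6.55 in H1299shRAD9 and 6.12, 5.63, 5.85, 6.12 and 5.99 in H1299, with no overlap. The difference was 0.49 (SE 0.135, adjusted p = 0.0532), the 1 call among 37 members (2.70%), where 7.71% of all features were called. Leaving out any single replicate ended it (0.43 to 0.57, adjusted p = 0.0644 to 0.193). In DBN, LARS was 1.05 higher on the arrays labelled H1299shRAD9 (SE 0.241, adjusted p = 0.0499), with all H1299shRAD9 levels (4.39 to 5.19) above all H1299 levels (3.28 to 4.21). That was again 1 of 37, against 4.38% of all features, and the call was lost without replicate 3 or 4 (0.91 and 0.93, adjusted p = 0.299 and 0.281). In CTL the LARS difference between the lines was -0.0024.

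In BN the VARS levels were 6.82, 6.62, 6.99, 6.87 and 7.15 in H1299shRAD9 and 6.48, 6.65, 6.22, 6.40 and 6.30 in H1299. The groups overlapped only through H1299 replicate 2 and H1299shRAD9 replicate 2. VARS was 0.48 higher (SE 0.134, adjusted p = 0.0499), 1 of 37 against 8.46% of all features, and this call held without replicate 2 (0.61, adjusted p = 0.0375) and was lost without replicate 1, 3, 4 or 5 (0.39 to 0.52, adjusted p = 0.0883 to 0.185). In DBP no member was called by limma, while 5.95% of all features were, and 4 members had an unadjusted p under 0.05, against 22.8% of all features. The 8 other cytosolic synthetases were all above 0 in CTL, BP, DBN and BN and 7 of 8 in DBP. Their medians were 0.23, 0.32, 0.32, 0.34 and 0.22 in CTL, BP, DBN, BN and DBP. Of all features, 63.1%, 68.3%, 67.6%, 69.7% and 65.2% were above 0 in the same order of conditions. Over all features the median was itself above 0, at 0.12 in CTL, 0.15 in BP, 0.16 in DBN and BN and 0.13 in DBP, and scaling the arrays by the 75th percentile moved it to between -0.04 and 0.03. Under this scaling FARSA in CTL was 0.39 and HARS 0.38 higher, and neither was called.

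**Figure D3:**
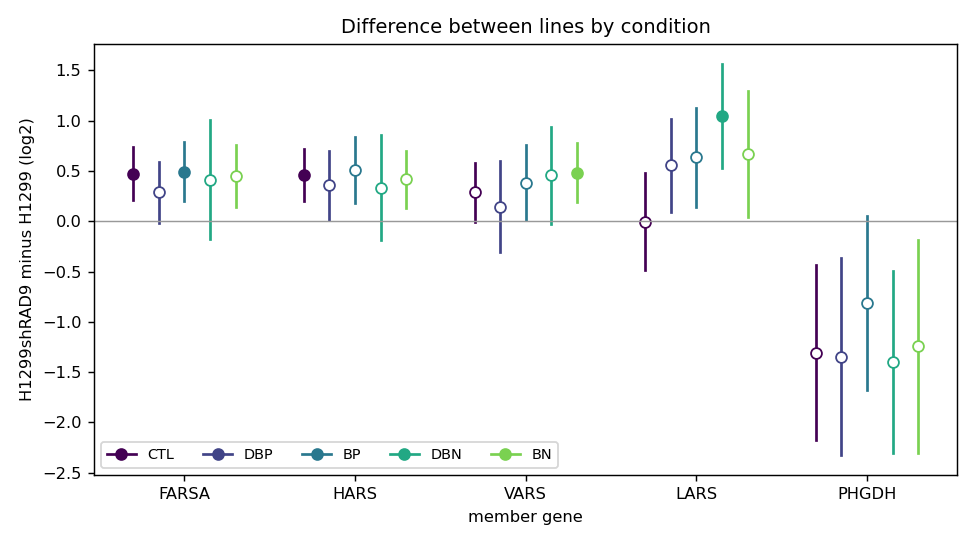
Difference between H1299shRAD9 and H1299 (log2) of the members called between the lines and of PHGDH, for the 5 conditions; bars are 95% confidence intervals from limma and filled points are called. FARSA, HARS and VARS lie above 0 in each condition, LARS is at 0 in CTL and 1.05 in DBN, and PHGDH lies between -1.40 and -0.81.

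Among the tested members, the largest difference between the lines in CTL was in the serine pathway and was not called. PHGDH, the first enzyme of that pathway, had levels in H1299 of 6.75, 6.92, 4.88, 4.87 and 4.98 in CTL, 7.35, 7.25, 5.13, 5.16 and 5.04 in DBP, 5.20, 7.27, 4.76, 4.97 and 5.25 in BP, 6.40, 7.25, 5.13, 5.23 and 5.02 in DBN, and 7.10, 7.40, 4.92, 4.83 and 4.83 in BN. In H1299shRAD9 its levels were 4.34, 4.16, 4.58, 4.48 and 4.31 in CTL, 4.49, 4.55, 4.78, 4.86 and 4.54 in DBP, 4.55, 4.49, 4.99, 4.96 and 4.40 in BP, 4.69, 4.06, 3.54, 4.64 and 5.10 in DBN, and 4.56, 4.23, 4.87, 4.45 and 4.76 in BN. The H1299 levels of replicate 2 in all groups, and of replicate 1 in all but BP, lay far above the others, while all H1299shRAD9 levels were between 3.54 and 5.10. PHGDH differed by -1.31 in CTL (adjusted p = 0.0421), where its unadjusted limma p was above the 0.005 limit. Its differences in the exposed groups were -1.34 (DBP, adjusted p = 0.116), -0.81 (BP, adjusted p = 0.229), -1.40 (DBN, adjusted p = 0.104) and -1.24 (BN, adjusted p = 0.124). The groups did not overlap in CTL and DBP. It was called lower in CTL under 75th percentile scaling, quantile normalization and normexp background correction, and on the authors' processed values.

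More of the variation of the members lay between replicate numbers than between conditions. Replicate number ran in part with slide and scan day. In H1299, for example, all arrays of replicate 2 were scanned on the same day and all of replicate 4 on another. The part of slide and scan day in this variation was not tested. In H1299 a median of 72.9% of a member's variance over 25 arrays lay between replicate numbers and 4.10% between conditions, against 32.9% and 11.5% over all features. In H1299shRAD9 the figures were 55.7% and 6.21%, against 36.6% and 8.60%. The members also varied more in H1299, with a median SD over 25 arrays of 0.541, against 0.338 for all features, than in H1299shRAD9 (0.289 and 0.245). LARS had the highest condition share in H1299shRAD9, at 47.7%, with 20.5% between replicate numbers, while SLC38A1 reached 90.9% and IARS and GPT2 90.2% between replicate numbers. In H1299, PHGDH reached 87.3% and the proline enzyme ALDH18A1 3.25%.

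**Figure D4:**
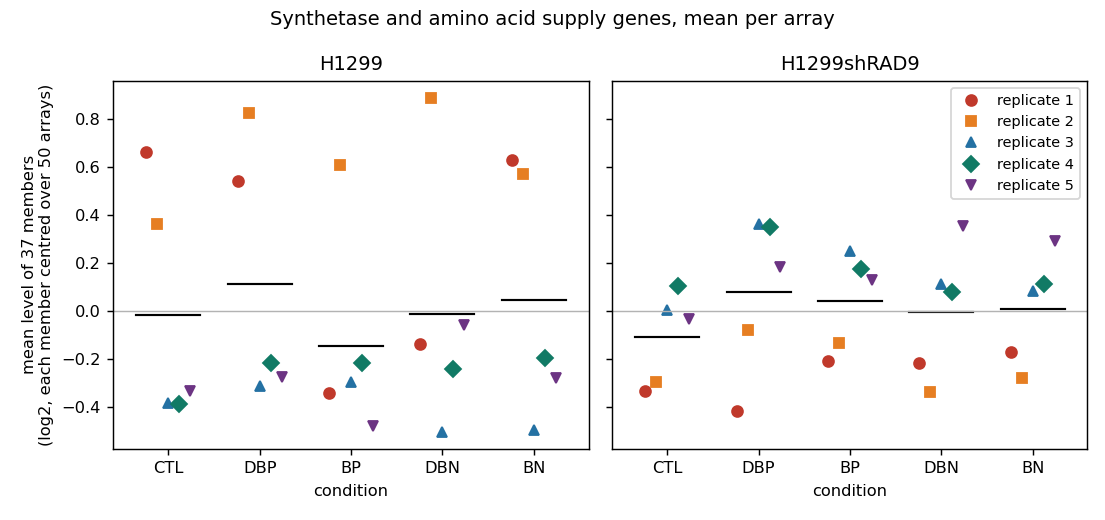
Mean level of the 37 tested members on each of the 50 arrays (log2, each member centred on its mean over all arrays), by condition and line; shapes mark the replicate number and bars are group means. In H1299 the arrays of replicates 1 and 2 lie above 0, except replicate 1 in BP (-0.344) and DBN (-0.140), and in H1299shRAD9 those of replicates 1 and 2 lie below 0.

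Levels on every array are given for a set of genes chosen for their roles, not for the size of this share. PSAT1 levels in H1299 were 9.35, 8.67, 6.99, 6.92 and 6.84 in CTL, 8.92, 9.57, 7.09, 7.22 and 7.06 in DBP, 6.83, 9.23, 7.17, 7.17 and 6.76 in BP, 8.50, 9.49, 6.66, 7.10 and 7.53 in DBN, and 9.29, 8.86, 6.76, 7.25 and 7.14 in BN. In H1299shRAD9 they were 6.53, 6.68, 7.83, 8.01 and 7.53 in CTL, 6.26, 6.88, 8.62, 8.56 and 7.86 in DBP, 6.66, 6.81, 8.37, 8.15 and 7.98 in BP, 6.76, 6.64, 8.14, 7.91 and 8.04 in DBN, and 6.95, 6.61, 7.55, 8.03 and 8.23 in BN. In H1299 the arrays of replicates 1 and 2 were high in every group but BP, where only replicate 2 was, and in H1299shRAD9 replicates 1 and 2 were instead the low ones. The levels of MTHFD2, the mitochondrial one-carbon dehydrogenase, in H1299 were 7.42, 7.20, 5.73, 5.65 and 5.60 in CTL, 6.71, 8.16, 6.01, 5.999 and 5.81 in DBP, 5.63, 7.80, 6.01, 5.95 and 5.45 in BP, 6.10, 7.91, 5.49, 5.94 and 6.25 in DBN, and 7.51, 7.12, 5.65, 5.95 and 5.93 in BN. In H1299shRAD9 they were 5.95, 6.16, 6.36, 6.61 and 6.34 in CTL, 5.73, 6.44, 7.04, 6.78 and 6.55 in DBP, 6.05, 6.30, 6.71, 6.49 and 6.40 in BP, 6.05, 6.12, 6.80, 6.49 and 6.78 in DBN, and 6.24, 5.98, 6.32, 6.58 and 6.67 in BN. In H1299 replicate 2 was the high array or among the high arrays of every group, and replicate 1 was high in CTL, DBP and BN.

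SLC7A5 and SLC3A2 are the light and heavy chains of the large neutral amino acid carrier, which brings leucine into the cell. SLC7A5 levels in H1299 were 6.80, 6.60, 4.25, 4.49 and 4.78 in CTL, 6.77, 7.13, 4.49, 5.06 and 5.01 in DBP, 4.60, 6.71, 4.62, 5.11 and 4.54 in BP, 5.82, 7.37, 3.90, 5.05 and 5.27 in DBN, and 6.68, 6.90, 3.88, 5.36 and 5.09 in BN. In H1299shRAD9 they were 5.55, 5.76, 5.94, 5.79 and 5.81 in CTL, 5.28, 5.92, 6.52, 6.55 and 6.06 in DBP, 4.94, 5.89, 6.63, 6.28 and 6.03 in BP, 5.91, 5.29, 5.90, 5.99 and 6.57 in DBN, and 5.81, 5.59, 5.71, 5.87 and 6.50 in BN. SLC3A2 levels in H1299 were 5.79, 5.76, 4.21, 3.97 and 4.05 in CTL, 5.31, 5.89, 4.19, 4.07 and 3.99 in DBP, 3.87, 5.62, 4.41, 4.10 and 4.04 in BP, 4.70, 6.12, 4.12, 4.23 and 4.45 in DBN, and 5.57, 5.97, 4.16, 4.56 and 4.11 in BN. For both subunits the H1299 arrays of replicate 2 in all groups, and of replicate 1 in CTL, DBP and BN, were the highest, and replicate 1 in DBN stood between these and the rest. SLC3A2 levels in H1299shRAD9 were 3.96, 4.17, 4.36, 4.29 and 4.16 in CTL, 3.77, 4.44, 4.62, 4.67 and 4.39 in DBP, 3.90, 4.37, 4.83, 4.72 and 4.15 in BP, 4.27, 3.72, 4.26, 4.22 and 4.92 in DBN, and 4.29, 4.04, 4.59, 4.16 and 4.54 in BN. All of these lay below the high H1299 arrays of the same gene.

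Among the synthetases, WARS charges tryptophan tRNA. WARS levels in H1299 were 6.96, 6.55, 5.86, 5.73 and 5.81 in CTL, 7.05, 7.46, 5.86, 5.998 and 5.84 in DBP, 5.90, 7.21, 5.88, 5.90 and 5.52 in BP, 6.01, 7.67, 5.77, 5.95 and 6.12 in DBN, and 7.03, 6.80, 5.83, 5.93 and 5.77 in BN. In H1299shRAD9 they were 5.68, 5.67, 5.91, 5.96 and 5.79 in CTL, 5.61, 5.93, 6.09, 6.18 and 5.99 in DBP, 5.86, 5.91, 6.07, 5.94 and 5.93 in BP, 5.92, 5.60, 5.90, 5.83 and 6.29 in DBN, and 5.91, 5.75, 5.82, 5.84 and 6.13 in BN. In H1299 its high arrays were replicate 2 in all groups and replicate 1 in CTL, DBP and BN. MARS levels in H1299 were 9.05, 7.16, 7.59, 7.61 and 7.46 in CTL, 9.28, 8.55, 7.66, 7.65 and 7.54 in DBP, 7.56, 7.52, 7.84, 7.75 and 6.71 in BP, 8.91, 8.71, 7.08, 7.62 and 8.15 in DBN, and 8.65, 7.07, 7.17, 7.89 and 7.76 in BN. In H1299shRAD9 they were 8.07, 8.28, 8.24, 8.32 and 7.88 in CTL, 7.45, 8.20, 8.48, 8.61 and 8.08 in DBP, 7.90, 8.30, 8.42, 8.19 and 8.04 in BP, 7.99, 8.11, 8.10, 7.996 and 8.01 in DBN, and 8.15, 8.11, 7.84, 8.01 and 8.19 in BN. In H1299 replicate 1 was the highest array of every group but BP, and replicate 2 was high in DBP and DBN and the lowest array of CTL and BN.

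A mean over members was taken per array, as the deviation of each gene from its own mean over all arrays. In H1299 it ran from 0.365 to 0.891 on the arrays of replicate 2. On those of replicate 1 it was 0.665 in CTL, 0.541 in DBP and 0.631 in BN, but -0.344 in BP and -0.140 in DBN. Arrays of replicates 3 to 5 lay between -0.507 and -0.0605. In H1299shRAD9 the order was turned, with -0.417 to -0.0794 for replicates 1 and 2 and -0.0346 to 0.363 for replicates 3 to 5. Of the 8 H1299 arrays with a mean above 0, 6 had a 5′ to 3′ index between -0.484 and -0.214, and CTL replicate 2 (-0.0142) and BN replicate 2 (0.0904) did not, while the remaining H1299 arrays lay between -0.0278 and 0.279. The part of the index in this order was not tested.

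Other genes of the pathway, from lists drawn up with the members, show how far the pattern reached. ATF4 itself had differences of 0.02, 0.08, -0.00 and 0.08 in DBP, BP, DBN and BN of H1299shRAD9, not called. Of 16 tested stress response genes, 2 rose in DBP, 3 in BP and 3 in DBN, where 1.53%, 1.37% and 2.78% of all features were called. In BN 0 were called by limma, against 0.0299% of all features. There 8 of these genes had an unadjusted p under 0.05, against 13.4% of all features. In the 4 groups 0 were called lower. ASNS, which makes asparagine, rose by 0.56 in DBP (adjusted p = 0.0710), 0.48 in BP (adjusted p = 0.0588) and 0.54 in DBN (adjusted p = 0.0928, 4 pairs since 1 spot was missing). CHAC1, a glutathione-degrading enzyme, rose by 1.61 in DBP (adjusted p = 0.0793), 1.18 in BP (adjusted p = 0.0580) and 1.52 in DBN (adjusted p = 0.0765). TRIB3, a pseudokinase that restrains ATF4, rose by 0.54 in BP (adjusted p = 0.0979) and 0.48 in DBN (adjusted p = 0.0933). In DBP its mean level was 6.19 against 5.58 in CTL, and this was not called. Mean levels in BN, not called, were 3.68 for CHAC1, 8.22 for ASNS and 5.95 for TRIB3, against 2.62, 7.88 and 5.58 in CTL. DDIT3, a stress-induced transcription factor, had differences of 0.56, 0.53, 0.50 and 0.51 in DBP, BP, DBN and BN and SESN2, a leucine sensor, of 0.60, 0.61, 0.68 and 0.56, none called. CHAC1 levels in CTL were 2.25, 2.16, 3.05, 2.90 and 2.74 in H1299shRAD9 and 5.84, 7.04, 2.50, 2.37 and 2.83 in H1299, where replicates 1 and 2 again stood apart. No gene of the 17 mitochondrial tRNA synthetases, the 4 synthetase scaffold and tRNA export genes, the 4 eIF2 alpha kinases or the 27 other tested amino acid genes was called in an exposed group of either line by limma, and in H1299shRAD9 between 0 and 4 genes of a list had an unadjusted p under 0.05. Over all features, 14.6%, 10.5%, 14.5% and 13.4% had such a p in DBP, BP, DBN and BN of H1299shRAD9.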

How the data were processed

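Gene expression in 50 samples was measured on Agilent one-color 4x44K arrays with Cy3-labelled cRNA. Per the file headers, Feature Extraction 11.5.1.1 gave each spot a background-subtracted, detrended intensity and marks of 0 or 1, annotated on hg19. The authors' deposited value table holds log2 intensities, median normalized and filtered in BRB-Array Tools, and was used only as an alternative (9476 features, 24 members).

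From the deposited intensities, outlier spots were dropped, log2 was taken, the median of each array subtracted and spots of a probe averaged. A feature was kept if well above background on more than 75% of arrays (20079 features), and the brightest probe stood for a gene. Tests used limma 3.58.1 in R 4.3.3 with Benjamini-Hochberg adjustment over all features. Each exposed group was compared with CTL (8) in a fit blocked by replicate number, at p below 0.006 with FDR below 10%, after the study's methods, which used a random-variance paired test. Line comparisons (5) were unpaired, with p below 0.005 (a limit given in a legend of the study) and the same FDR. Interactions (4), which the methods do not name, had the block and p below 0.006. The study's 1.3-fold variation filter was not applied, since it would leave 30 members (12172 features), but was run as an alternative. Other alternatives were scaling, background, filter, probe rule, block, slide and leaving out replicates. Same-numbered arrays deviated together in H1299shRAD9 (lowest correlation 0.200) and in H1299 DBP and BN (0.262 and 0.202 at the lowest), not in every pair of H1299 BP and DBN (-0.177 and -0.106) or between the lines (-0.153). Precision is limited by 5 arrays per group, and p-values measure the spread between these arrays. The scripts were tested on simulated data. The members and lists were chosen with earlier results of these data known. Genes were named for their call, for the replicate pattern or for their role in the pathway.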

Additional observations from a re-analysis of the deposited data

Results flagged for a closer look

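In 9 of 110 groups of 5 arrays among the 11 members shown by array, 1 array stood apart from the other 4 by more than Dixon's 95% limit, and over all tested members this was so in 33 of 370 groups, where chance gives about 1 in 20. All 9 were H1299 groups. In BP replicate 2 was high for PSAT1 (9.23, nearest 7.17), PHGDH (7.27, nearest 5.25), MTHFD2 (7.80, nearest 6.01), WARS (7.21, nearest 5.90) and SLC7A5 (6.71, nearest 5.11). In DBN replicate 2 was high for WARS (7.67, nearest 6.12) and SLC3A2 (6.12, nearest 4.70). MARS was high in CTL replicate 1 (9.05, nearest 7.61) and low in BP replicate 5 (6.71, nearest 7.52). Over all tested members H1299 BP replicate 2 was the high array 14 times and H1299 DBN replicate 2 8 times.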

How the results depend on the processing

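No member was called in the 4 comparisons of H1299 with CTL, in H1299shRAD9 BN or in the 4 interactions under any setting run, 9 comparisons in all. The other counts of called members changed as follows. Between the lines in CTL (2), quantile normalization, scaling to the 75th percentile, normexp and the authors' values each left 1 (PHGDH, lower), the replicate block left 1, and the 1.3-fold filter, 1 fit of all 50 arrays and slide as a random block left 0. In DBP (0), no filter on dim features and the authors' values gave 1, and the 5′ to 3′ index as a covariate, chosen after seeing the data, gave 2. In BP (1), normexp and the index gave 2, while 75th percentile, quantile, no dim filter, the 1.3-fold filter, the authors' values and the replicate block gave 0. In DBN (1), the 1.3-fold filter, the replicate block and the index gave 2, and quantile and no dim filter gave 0. In BN (1), every setting but the positive and significant mark, the mean of all probes and the index gave 0, the replicate block included, apart from left-out replicates. In H1299shRAD9 DBP (0), 75th percentile, normexp and the authors' values gave 1 and quantile 2. In BP (1), normexp gave 2, and the positive and significant mark, no dim filter, all 50 arrays, no replicate block and the index gave 0. In DBN (1), these same settings other than normexp gave 0, as did the mean of all probes.

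Leaving out each replicate gave 0 to 4 (lines, CTL), 0 to 1 (DBP), 0 to 4 (BP), 0 to 3 (DBN) and 0 to 2 (BN), and 0 to 4, 0 to 1 and 0 to 1 in H1299shRAD9 DBP, BP and DBN. Without replicate 1, 4 members (CARS, CBS, LARS, SLC1A4) were called in H1299shRAD9 DBP and 4 (FARSA, HARS, MARS, RARS) between the lines in CTL. Without replicate 2, 4 (CBS, NARS, PYCR1, SLC7A5) were called between the lines in BP. With all replicates, MARS in CTL was 0.39 by its brightest probe and 0.07 by its other probe. PYCR1 in BP was 0.53 by its brightest probe and -0.18 by its other probe, and none of these values was called. LARS in H1299shRAD9 DBN reversed with the index (-0.014). RAD9A passed the exact test in DBP under 75th percentile scaling (-0.44) and quantile normalization (-0.41), and reversed in DBN under 75th percentile (-0.11), quantile (-0.086) and normexp (-0.077) and in BN under normexp (0.40). The members' median between the lines turned negative under 75th percentile scaling in DBP (-0.09), DBN (-0.11) and BN (-0.12), and normexp moved the BN median to 0.66. The cause was not tested. Slide as a fixed block could not be fitted between the lines or for BP and DBN against CTL, nor as a random block between the lines in DBP, BP, DBN and BN. Precision is limited by the number of arrays.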

Other observations

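Beside the members, 3 genes of the related lists were far lower in H1299shRAD9. ASS1, which makes argininosuccinate on the way to arginine, was lower in all 5 conditions, with log2 differences of -2.58 (CTL), -3.12 (DBP), -2.18 (BP), -2.81 (DBN) and -2.58 (BN) (limma, adjusted p = 0.0133 to 0.0337). NUPR1, a stress-induced chromatin protein, was lower in CTL (-3.06, adjusted p = 0.0185), DBN (-2.94, adjusted p = 0.0758) and BN (-2.96, adjusted p = 0.0566). DDIT4, an inhibitor of mTORC1, was lower in CTL (-1.85, adjusted p = 0.0328).

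The other calls between the lines were smaller and mostly upward. Of 27 other amino acid genes, 3 were called higher in CTL (SLC7A2, SLC38A5 and MAT2A, 0.45 to 0.52), 1 in DBP (SLC7A6, 0.88), 1 in BP (SLC36A1, 0.68), 1 in DBN (MAT2A, 0.85) and 2 in BN (SLC7A2 and SLC36A1, 0.58 and 0.54), and beside ASS1 the transporter SLC43A1 was called lower in DBP (-1.32) and BN (-0.99). Of 17 mitochondrial synthetases, MARS2 was higher in CTL (0.72) and DBP (1.43), and EARS2 and YARS2 in BP (0.61 and 0.43). AIMP2, a scaffold of the multi-synthetase complex, was higher in BP (0.56) and the transcription factor ATF5 in BN (0.49). No eIF2 alpha kinase was called by limma, with 1 of 4 at an unadjusted p under 0.05 in each of BP, DBN and BN. Over all features, 14.2%, 5.95%, 7.71%, 4.38% and 8.46% were called in CTL, DBP, BP, DBN and BN.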
